A study of Rattus norvegicus with 6 samples.

Results

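The 4 lncRNA transcripts NONRATT003466.2, NONRATT003467.2, NONRATT003468.2 and NONRATT003473.2 lie near each other on rat chromosome 1, and they were chosen because they held about 14% of all lncRNA counts in the control nerves. They are 4 of the 22721 lncRNA transcripts in the expression table. From each larger group of Sprague-Dawley rats of about 1 month of age, 2 rats were picked at random for sequencing, with 1 sciatic nerve library per rat. In the D4 and D7 groups the left sciatic nerve was crushed with hemostatic forceps, and the tissue was taken 4 or 7 days later. Control rats were operated on without the clamp according to the study's methods, while the labels call them normal controls. Total RNA was depleted of ribosomal RNA before sequencing, so that transcripts without a poly-A tail could also be read. The libraries held 2694777 to 3043817 lncRNA counts and 18727255 to 25350886 mRNA counts, and the lncRNA share of both together was 10.6% to 12.7%.

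Because the control counts selected these transcripts, their control levels and their changes against the control group are given as a description and not as a test. The D7 vs D4 difference is taken between libraries other than control, but its SE and p-value come from a fit of all 6 libraries, in which the control libraries enter the filter, the scaling and the estimate of the spread. Values from a fit of the D4 and D7 libraries alone are therefore given beside it. A transcript or gene is called changed here at an adjusted p-value under 0.05 (edgeR quasi-likelihood test, Benjamini-Hochberg adjustment over all transcripts or all genes tested) together with a fold change of at least 2. An exact permutation test of 2 against 2 libraries cannot give a p under 0.333, so no such test was run for the shares and ratios below.

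All 4 transcripts map near Frmd8, which encodes a FERM-domain protein that binds iRhoms. In other mammals Malat1 and Neat1, abundant nuclear lncRNAs, also lie near Frmd8. Malat1 RNA gathers at nuclear speckles, where splicing factors are stored. Its 3′ end is made by RNase P, which cuts before a tRNA-like element, and RNase Z trims the small RNA released. Neat1 RNA is the scaffold of paraspeckles, nuclear bodies built with RNA-binding proteins such as Nono and Sfpq. The deposited annotation gives the 4 transcripts no gene name, and none of them was assigned to Malat1 or Neat1 here. A search of the RefSeq gene table of the GRCr8 assembly matched 0 of the 4 identifiers.

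On the Rnor_6.0 build, NONRATT003466.2 occupies chromosome 1 from 221152844 to 221153728 and is 885 nt long. NONRATT003467.2 follows after a gap of 174 nt, from 221153903 to 221154144, with a length of 242 nt. NONRATT003468.2 follows after a further 2223 nt, from 221156368 to 221158798, with a length of 2431 nt. The fourth transcript, NONRATT003473.2, lies 42184 nt further on, from 221200983 to 221204272, and is 3290 nt long. The first 3 thus sit within 5955 nt, whereas the whole set spans 51429 nt and covers 13.3% of that span. Frmd8 starts 9035 nt after the last transcript, and no gene of the mRNA table overlaps any of the 4.

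The annotated length of each of the 4 equalled its span on the genome, so each was annotated as 1 exon, and each carries a name ending in "unspliced". Such names are common in the table, at 40.5% of all transcripts, and 42.4% of all transcripts had a length equal to their span. The median length in the table was 686 nt. NONRATT003467.2 was among the shortest, with 1.07% of all transcripts no longer than it, while NONRATT003468.2 and NONRATT003473.2 were at least as long as 93% and 95.7% of them.

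Together the 4 transcripts held 13.8% and 14.4% of all lncRNA counts in control rats a and b. They held 7.23% and 6.67% at D4, and 8.52% and 8.89% at D7. The group means were 14.1% ± 0.386 in control, 6.95% ± 0.396 at D4 and 8.70% ± 0.267 at D7 (SD, n = 2 each), and no group overlapped another. The 95% exact binomial intervals were at most a few hundredths of a percentage point from each value, for example 13.7855% to 13.8631% in control rat a, and they cover counting error alone. As a share of the lncRNA and mRNA counts together the means were 1.74%, 0.737% and 1.09%. In bulk nerve RNA, fewer cells that make a transcript and less of it per cell cannot be told apart.

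**Figure D1:**
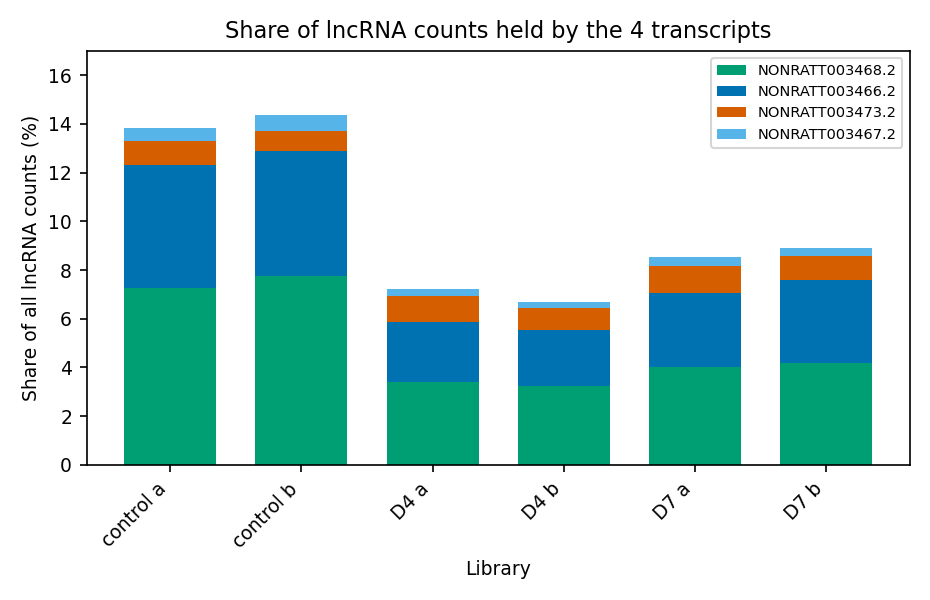
Share of all lncRNA counts (percent, y axis) held by each of the 4 transcripts in each of the 6 libraries (x axis), stacked from 0. The stacks reach 13.8% and 14.4% in control, 7.23% and 6.67% at D4, and 8.52% and 8.89% at D7.

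With the 4 left out, the lncRNA table made up 10.4% and 11.1% of all counts in control, 9.90% and 9.96% at D4, and 11.4% and 11.6% at D7. The D7 libraries were therefore above the control libraries on this measure, and the D4 libraries below them.

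NONRATT003466.2 has the lowest coordinates of the 4. Its counts were 152818 and 140609 in control, 66669 and 68750 at D4, and 84999 and 91245 at D7. Both injured groups lay below both control libraries, and D7 lay above D4. As CPM, counts relative to the TMM-scaled lncRNA total of each library, the means were 55548 ± 62 in control, 22956 ± 1203 at D4 and 31236 ± 2131 at D7 (SD, n = 2). The fitted log2 fold change was −1.27 (SE 0.072) at D4, which left 41.3% of the control level. At D7 it was −0.83 (SE 0.071), which left 56.2%.

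NONRATT003467.2, the shortest of the set, had 16399 and 18078 counts in control, 8145 and 7308 at D4, and 9541 and 8744 at D7. Again no injured library reached a control library. The log2 fold change was −1.32 (SE 0.14) at D4 and −1.02 (SE 0.14) at D7, which left 40.1% and 49.4% of the control level. The SE was larger than for its neighbours on either side, and the control libraries differed by more, at 5966 and 7136 CPM.

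NONRATT003468.2 was the lncRNA with the most counts in all 6 libraries. It had 221671 and 211456 counts in control, 92206 and 97932 at D4, and 113974 and 113110 at D7. In control this transcript alone took 7.28% and 7.74% of all lncRNA counts, against 3.40% and 3.26% at D4 and 4.03% and 4.20% at D7. The log2 fold change was −1.35 (SE 0.052) at D4 and −1.03 (SE 0.052) at D7, which left 39.3% and 49.0% of the control level.

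NONRATT003473.2, the transcript nearest to Frmd8, did not follow the other 3. Its counts were 29897 and 22546 in control, 28854 and 26529 at D4, and 32234 and 26549 at D7, and the 3 groups overlapped. Its share of lncRNA counts was 0.982% and 0.825% in control, 1.07% and 0.883% at D4, and 1.14% and 0.985% at D7. The log2 fold change was −0.07 (SE 0.15) at D4 and 0.07 (SE 0.15) at D7. At D4 the value was 0.11 without TMM factors and −0.42 with the scaling of the mRNA table, under which the median of all lncRNA transcripts moved to 0.20 and −0.33. Relative to that median it was −0.09 under each of these scalings.

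**Figure D2:**
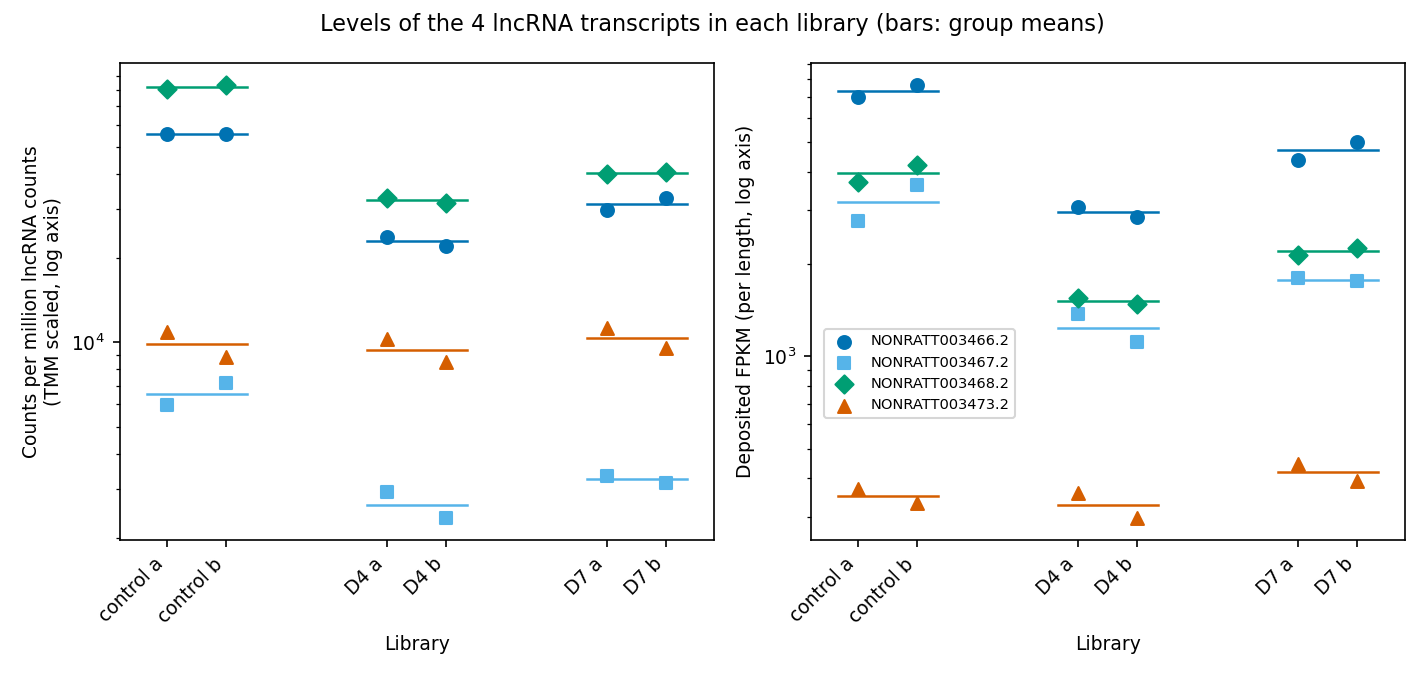
Levels of the 4 transcripts in each library, as CPM of lncRNA counts on the left and as deposited FPKM, which divides by length, on the right, both on log axes with horizontal bars at the group means. NONRATT003466.2, NONRATT003467.2 and NONRATT003468.2 are lower in every D4 and D7 library than in either control library on both scales, while the levels of NONRATT003473.2 overlap between groups on the CPM scale.

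In the control vs D4 comparison 3 of the 4 transcripts were downregulated past the threshold, where 4.87% of the 14077 transcripts tested were called lower. In the control vs D7 comparison 2 of the 4 were called lower, NONRATT003467.2 and NONRATT003468.2, where 2.79% of those tested were. By adjusted p-value alone it was 3 of 4 at D7, beside 3.02% of those tested. These shares stand beside the counts for scale only, because the control counts selected the transcripts. The 3 called at D4 also lie within 5955 nt of each other. Their log2 CPM correlated over the 6 libraries at a Pearson r of 0.972 to 0.990. They cannot be counted as independent of each other, here or in the D7 vs D4 comparison. The split of all D4 calls was 730 higher and 685 lower, against 981 and 544 without TMM factors and 509 and 1257 with the scaling of the mRNA table. The D4 call of NONRATT003467.2 was lost without D4 rat b, at a log2 fold change of −1.19. Its D7 call was lost without control rat b, D7 rat a or D7 rat b, at −0.90, −1.07 and −0.96, with adjusted p-values of 0.0616 to 0.0961 in the same edgeR test. It was lost also with the library letter as a replicate block. Without TMM factors none of the 4 reached 2-fold at D7, and NONRATT003468.2 then stood at −0.87. DESeq2 called 3 of 4 lower at D4 and 2 of 4 at D7.

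The D7 vs D4 comparison asks whether the level at D4 had moved by D7. The fitted change was upward for all 4. It was 0.44 (SE 0.071, adjusted p = 0.109) for NONRATT003466.2 and 0.32 (SE 0.051, adjusted p = 0.109) for NONRATT003468.2. It was 0.30 (SE 0.14, adjusted p = 0.469) for NONRATT003467.2 and 0.14 (SE 0.15, adjusted p = 0.767) for NONRATT003473.2. In the fit of the D4 and D7 libraries alone the adjusted p-values were 0.135 for NONRATT003466.2, 0.124 for NONRATT003468.2, 0.381 for NONRATT003467.2 and 0.688 for NONRATT003473.2 (edgeR). None passed the edgeR threshold over the 14077 transcripts, of which 0.249% were called. At an unadjusted p under 0.05 it was 2 of 4, NONRATT003466.2 and NONRATT003468.2, against 12.5% of all transcripts tested. DESeq2 also called 0 of 4 at 2-fold, with adjusted p-values of 0.0130 and 0.0350 for these same transcripts.

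When the 4 were replaced by their sum, so that the division of fragments between them could not matter, the summed level was lower by a log2 fold change of −1.20 (SE 0.054) at D4 and −0.86 (SE 0.054) at D7. The difference between D7 and D4 was 0.34 (SE 0.054, adjusted p = 0.111 in the edgeR test). That adjusted p was 0.0431 with DESeq2, 0.0406 with the scaling of the mRNA table, 0.280 with the replicate block and 0.122 with the D4 and D7 libraries alone. Every one of the 14 alternatives fitted for the sum kept the difference positive, between 0.29 and 0.58.

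**Figure D3:**
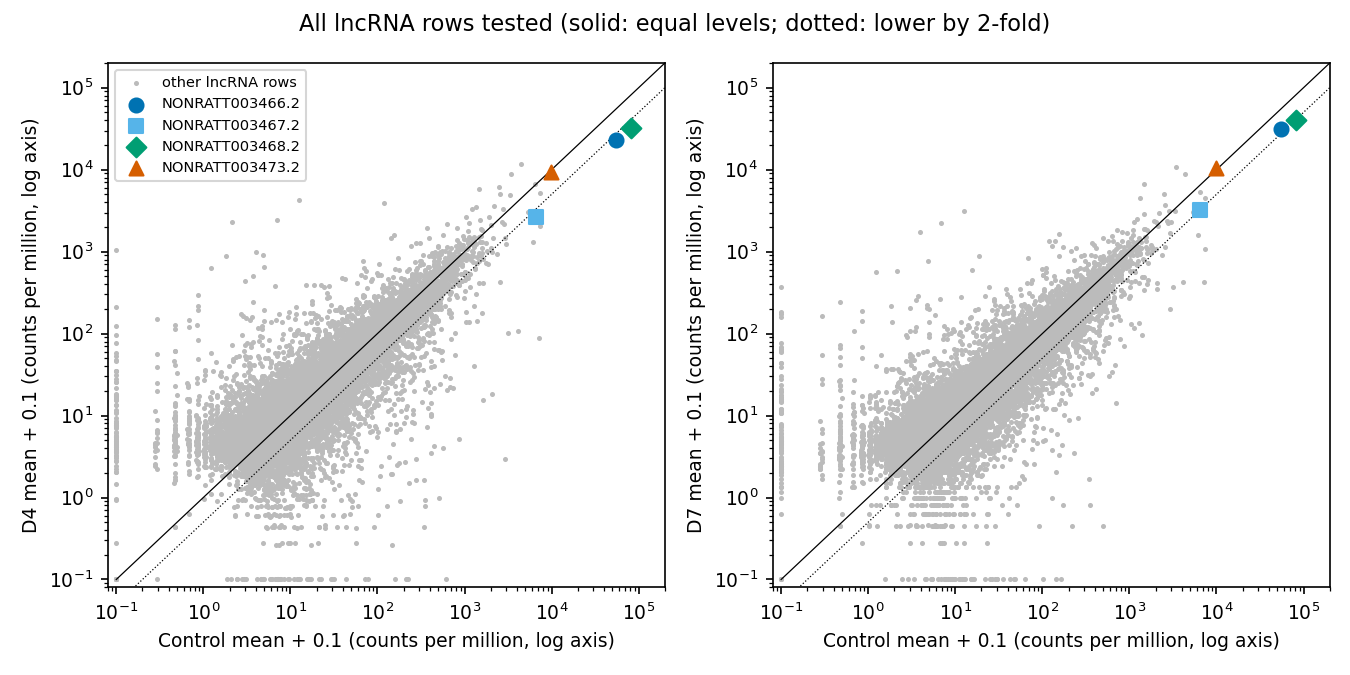
Mean CPM plus 0.1 of every lncRNA transcript tested in the control group (x axis) against the D4 group (left) and the D7 group (right), on log axes; the solid line marks equal levels and the dotted line a level lower by 2-fold. NONRATT003466.2 and NONRATT003468.2 stand at the upper end of the cloud and below or near the dotted line, and NONRATT003473.2 lies on the solid line.

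In order of counts NONRATT003468.2 was first and NONRATT003466.2 second in all 6 libraries. NONRATT003473.2 took place 3 in both control libraries and place 4 or 5 after injury. NONRATT003467.2 took places 9 and 6 in control, 19 and 24 at D4, and 12 and 14 at D7. Per unit of length the order differed. NONRATT003466.2 had the highest FPKM of any lncRNA in all 6 libraries, at 7029 and 7690.1 in control (the authors' values), 3067 and 2853 at D4, and 4379 and 5013 at D7.

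NONRATT003468.2 had 3712 and 4210.1 FPKM in control, 1544 and 1479.7 at D4, and 2138 and 2262 at D7. NONRATT003467.2 had 2759 and 3616 FPKM in control, 1370.2 and 1109 at D4, and 1798 and 1757 at D7, in each library below NONRATT003468.2. NONRATT003473.2 was the lowest of the 4 per length, at 370 and 332 FPKM in control, 357 and 296 at D4, and 447 and 392 at D7, and on this scale both D7 libraries lay above the other 4.

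The balance between the transcripts also differed between the groups. NONRATT003473.2 had 7.65 and 6.09 counts for every 100 counts on the other 3 in control, 17.3 and 15.2 at D4, and 15.5 and 12.5 at D7. The group means were 6.87 ± 1.10, 16.3 ± 1.43 and 14.0 ± 2.12 (SD, n = 2), and the control libraries did not overlap those of either injured group. This ratio is taken within a library, so it does not depend on how libraries were scaled. As a share of the summed counts of the 4, NONRATT003473.2 went from 6.42% ± 0.964 in control to 14.0% ± 1.06 at D4 and 12.2% ± 1.63 at D7, while NONRATT003468.2 went from 53.3% ± 0.826 to 48.0% ± 1.25 and 47.3% ± 0.101. The contrast of 1 transcript with the other 3 was set up after their values were seen and is given without a test.

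Between NONRATT003466.2 and NONRATT003468.2 the balance differed by less. The FPKM ratio of the first to the second was 1.89 and 1.83 in control, 1.99 and 1.93 at D4, and 2.05 and 2.22 at D7. The groups did not overlap, and the means were 1.86 ± 0.047 in control, 1.96 ± 0.041 at D4 and 2.13 ± 0.12 at D7 (SD, n = 2). The gap between control and D4 was, however, smaller than the spread within either group. This ratio is also given as a description, without a test. The counts of NONRATT003467.2 relative to those of NONRATT003468.2 had means of 0.0797, 0.0815 and 0.0805, and there the groups overlapped.

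**Figure D4:**
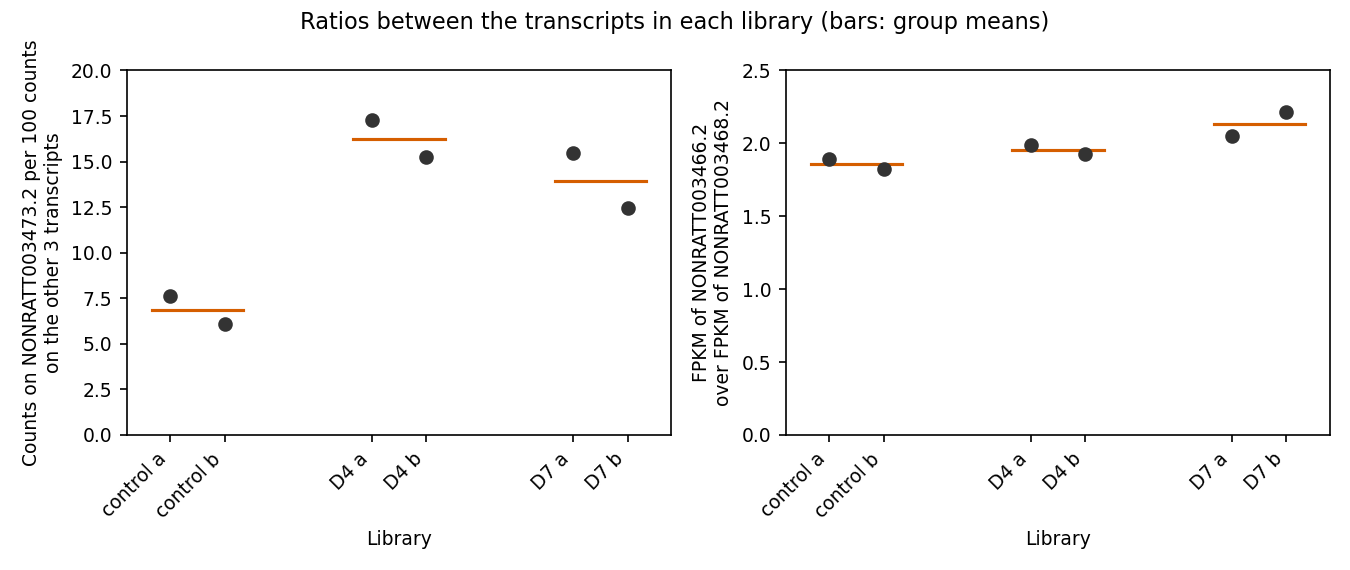
Ratios within each library (points; bars are group means, both axes start at 0): on the left counts of NONRATT003473.2 per 100 counts on the other 3 transcripts, on the right the FPKM of NONRATT003466.2 over that of NONRATT003468.2. The left ratio is 7.65 and 6.09 in control and between 12.5 and 17.3 in the injured libraries, and the right ratio stays between 1.83 and 2.22.

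Control counts between those of NONRATT003473.2 and NONRATT003467.2 were found for 3 transcripts outside the set, each elsewhere in the genome. NONRATT017935.2, on chromosome 3 from 6539099 to 6581345, had 20893 and 18207 counts in control, 14899 and 15314 at D4, and 13380 and 12040 at D7. NONRATT030152.2, on chromosome 9 from 81190189 to 81194655, had 16564 and 22178, then 6063 and 5867, then 21 and 6010 counts, so that its D7 libraries differed widely from each other. NONRATT030654.2, on chromosome X from 105286239 to 105289053, had 22256 and 16239, then 267 and 254, then 1690 and 755 counts. Their D4 log2 fold changes of −0.53 (SE 0.087), −1.87 (SE 1.83) and −6.36 (SE 0.46) (adjusted p = 0.0209, 0.553 and 0.00251 in the edgeR test) lay on both sides of the −1.27 to −1.35 of NONRATT003466.2, NONRATT003467.2 and NONRATT003468.2, and of these 3 NONRATT030654.2 alone was called at D4.

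Selection by control counts was set beside selection by injured counts. Among the 20 most abundant other lncRNAs of the control libraries, chosen by the same kind of value, 8 were called lower and 3 higher at D4, with a median log2 fold change of −0.69, while 4.87% and 5.19% of all transcripts tested were called lower and higher. At D7 it was 4 lower and 1 higher, with a median of −0.54, beside 2.79% and 3.00% of all tested. When the 20 most abundant others were chosen by the injured libraries instead, 9 were called higher and 0 lower at D4, and 7 higher and 0 lower at D7. In the mean of the injured libraries NONRATT003468.2, NONRATT003466.2, NONRATT003473.2 and NONRATT003467.2 took places 1, 2, 4 and 16.

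The other lncRNAs around the locus were far less abundant. Within 100 kb of the outer bounds of the set there were 19, of which 15 had enough counts to be tested. At D4 1 was called lower and 0 higher, against 4.87% and 5.19% of all transcripts tested, and the median of the 15 was −0.22. At D7 the same transcript was called, and in the D7 vs D4 comparison edgeR and DESeq2 called none (0 at an unadjusted p under 0.05).

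The called neighbour was MSTRG.2906.1, a lncRNA named by the assembler, 4735 nt long over a span of 6985 nt, that lies between NONRATT003468.2 and NONRATT003473.2, from 221162548 to 221169532. It had 559 and 269 counts in control, 27 and 33 at D4, and 47 and 31 at D7. The log2 fold change was −3.93 (SE 0.42, adjusted p = 0.00676 in the edgeR test) at D4 and −3.48 (SE 0.41, adjusted p = 0.0131) at D7. Its injured libraries were all far below both control libraries, yet the call was lost when either D4 library was left out at D4, or either D7 library at D7, and no neighbour was then called.

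NONRATT003471.2 and NONRATT003472.2 lie between MSTRG.2906.1 and NONRATT003473.2 and also carry names ending in "unspliced". NONRATT003471.2, from 221191924 to 221192632, had 1785 and 1972 counts in control, 1546 and 1347 at D4, and 1775 and 1524 at D7. Its log2 fold change at D4 was −0.54 (SE 0.18, adjusted p = 0.122 in the edgeR test). NONRATT003472.2, from 221199790 to 221200570, had 3165 and 2659, then 2815 and 2381, then 2774 and 2404 counts, with a log2 fold change of −0.31 (SE 0.17, adjusted p = 0.276) at D4. Neither passed the threshold in any comparison. By position, NONRATT003471.2, NONRATT003472.2 and NONRATT003473.2 thus had D4 values from −0.54 to −0.07, and NONRATT003466.2, NONRATT003467.2 and NONRATT003468.2 had values from −1.35 to −1.27. MSTRG.2906.1, at −3.93, lies between these sets, and the spliced transcripts within NONRATT003468.2 are given below. The grouping was not planned before the values were seen and was not tested.

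Before the first transcript, NONRATT003463.2 and NONRATT001454.2, which overlap Fam89b and Ltbp3, averaged 107 and 137 counts per library and passed the threshold in no comparison. NONRATT003469.2 and NONRATT003470.2 are spliced transcripts that lie within NONRATT003468.2. They had 55 to 135 and 0 to 83 counts per library, against 92206 or more for the transcript around them, so how the counting divided shared fragments could move them strongly. NONRATT003469.2 had a log2 fold change of 0.17 (SE 0.33) at D4 and 0.47 (SE 0.33) at D7, and so did not fall with NONRATT003468.2. NONRATT003470.2 had −0.31 (SE 2.06) and −0.30 (SE 2.06). Neither was called. The sources used here do not say if strand was used in counting.

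Of the 21 genes within 200 kb of the set, 18 were tested. At D4 4 were upregulated, where 11.2% of all 15195 genes tested were higher, and 0 were downregulated, where 10.7% were lower. At D7 3 were upregulated, where 9.83% of all were, and 1 was downregulated, where 9.02% were. Frmd8 had 1940 and 1312 counts in control, 5101 and 5732 at D4, and 5483 and 4363 at D7. It rose by a log2 fold change of 1.23 (SE 0.15, adjusted p = 0.00135 in the edgeR test) at D4 and 1.40 (SE 0.15) at D7.

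Farther out, Sipa1, which encodes a GTPase-activating protein for Rap1, rose by 1.33 (SE 0.13) at D4 and 1.45 (SE 0.13) at D7. Rnaseh2c, which encodes a subunit of RNase H2, rose by 1.39 (SE 0.24) and 1.38 (SE 0.24). Pola2, the B subunit of DNA polymerase alpha, passed the threshold at D4 alone, at 1.06 (SE 0.13), and had 0.59 at D7. The gene called lower at D7 was Cdc42ep2, which encodes an effector of the GTPase Cdc42, at −1.02 (SE 0.31, adjusted p = 0.0440 in the edgeR test), with −0.55 at D4. Its D7 call was lost in 9 of 13 alternatives, among them the replicate block and the fits without control rat b or any 1 of the D4 and D7 rats, with adjusted p-values of 0.0509 to 0.167 in these fits. The calls of Frmd8, Sipa1 and Rnaseh2c were made at both days in all 13, and that of Pola2 at D4 in 12, the exception being the fit without control rat a. In the D7 vs D4 comparison none of the 18 was called, where 2.18% of all genes tested were. At an unadjusted p under 0.05 it was 3 of 18, where 24.7% of all genes were, and by adjusted p alone 1 of 18, Capn1, which encodes the large subunit of calpain 1, where 4.67% of all genes were. DESeq2 called 0 of 18 in that comparison.

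**Figure D5:**
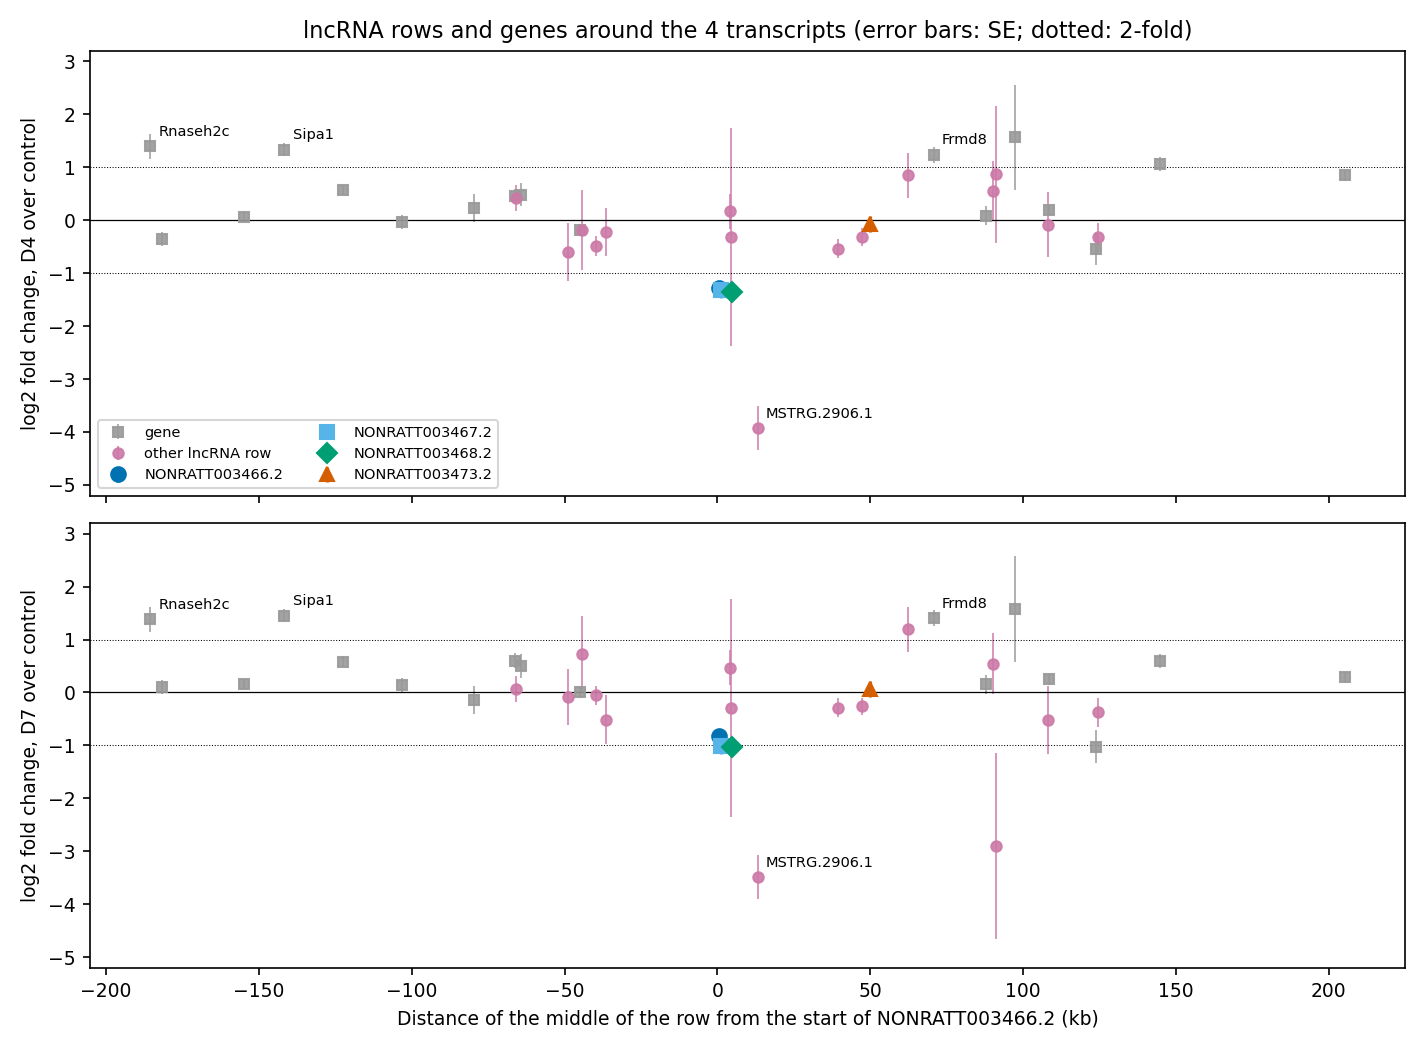
Fitted log2 fold change over control at D4 (upper panel) and D7 (lower panel) of the 4 transcripts, of the other lncRNAs within 100 kb and of the genes within 200 kb that were tested and are reported here, against the distance in kb of the middle of each from the start of NONRATT003466.2; error bars are SE and dotted lines mark 2-fold. The 3 transcripts at 0 to 6 kb lie near −1.3 at D4, NONRATT003473.2 at about 50 kb lies near 0, and Frmd8 lies above the upper dotted line in both panels.

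Genes of the nuclear bodies named above were read from the mRNA table by lists from textbook knowledge. Of 24 paraspeckle protein genes, 23 were found and tested. At D4 1 was upregulated and 1 downregulated, at shares of all genes of 11.2% and 10.7%, and the median log2 fold change was 0.13, against −0.04 for all genes tested. At D7 and in D7 vs D4 edgeR called 0 of 23. At unadjusted p under 0.05 it was 8 and 7 of 23, beside 48.4% and 24.7% of all genes tested, and DESeq2 called 0 of 23 in both.

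The paraspeckle gene that rose was Rbm3, which encodes a cold-inducible RNA-binding protein, with 1288 and 1005 counts in control, 3439 and 3458 at D4, and 1429 and 1576 at D7. Its log2 fold change was 1.08 (SE 0.12, adjusted p = 9.58e-04 in the edgeR test) at D4 and 0.19 (SE 0.12) at D7. Between D7 and D4 it differed by −0.89 (SE 0.12, adjusted p = 0.0215), under 2-fold. Hnrnph3, a heterogeneous nuclear ribonucleoprotein, fell by 1.09 on the log2 scale (SE 0.19, adjusted p = 0.00623), from 159 and 135 counts in control to 87 and 111 at D4, with 124 and 104 at D7, and its call was lost without D4 rat a and without TMM factors. By adjusted p alone 11 of 23 passed at D4 and 7 of 23 at D7, beside 44.2% and 37.5% of all genes tested. Hnrnpa1, an RNA-binding protein of high mean FPKM, had a log2 fold change at D4 of 0.62 (SE 0.12, adjusted p = 0.00813 in the edgeR test).

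Of 27 genes of nuclear speckles and splicing factors, all were tested. At D4 1 was downregulated and 0 upregulated, where 10.7% and 11.2% of all genes were, and at D7 and in D7 vs D4 edgeR called 0 of 27. At unadjusted p under 0.05 the 2 later comparisons had 17 and 11 of 27, beside 48.4% and 24.7% of all genes, and DESeq2 called 0 of 27 in each of the 3 comparisons. The gene was Clk4, which encodes a kinase that phosphorylates SR proteins, with 823 and 615 counts in control, 488 and 524 at D4, and 495 and 535 at D7. It fell by 1.01 on the log2 scale (SE 0.12, adjusted p = 0.00149 in the edgeR test), just past 2-fold, and the call was lost in 8 of 13 alternatives, among them the fits without control rat a, D4 rat b or D7 rat a. By adjusted p alone 12 of 27 passed at D4 and 12 of 27 at D7, beside 44.2% and 37.5% of all genes. Srrm2, a scaffold protein of speckles, and Srsf2, an SR protein, had the highest FPKM, with values at D4 of −0.16 (SE 0.094, adjusted p = 0.209) and 0.21 (SE 0.12, adjusted p = 0.209).

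Of 12 genes of RNase P and RNase Z, the enzymes that cut at tRNA-like elements, 1 was downregulated at D4 and 0 upregulated, where 10.7% and 11.2% of all genes were. edgeR called 0 of 12 at D7 and in D7 vs D4, with 7 and 0 of 12 at unadjusted p under 0.05 beside 48.4% and 24.7% of all genes, and DESeq2 called 0 of 12 in both. The gene was Rpp25, a protein subunit of RNase P, with 34 and 45 counts in control, 18 and 16 at D4, and 23 and 27 at D7. Its log2 fold change at D4 was −1.74 (SE 0.40, adjusted p = 0.0153 in the edgeR test), and the call was lost without control rat b and without either D4 rat, when 0 of 12 were called lower or higher. Pop4 and Rpp14, subunits with the highest FPKM of the list, had D4 values of 0.51 (SE 0.23, adjusted p = 0.117) and −0.04 (SE 0.14, adjusted p = 0.820). At D4 8 of the 12 had positive and 4 negative values, with a median log2 fold change of 0.41, against −0.04 for all genes tested. At D7 it was 7 and 5, with medians of 0.53 and 0.01. By adjusted p alone 3 were higher and 1 lower at D4, and 1 and 1 at D7. Of all genes tested, 44.2% and 37.5% passed in either direction.

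The tissue was checked against marker genes. Of 8 Schwann cell and myelin genes 6 were called lower at D4 and 4 at D7, where 10.7% and 9.02% of all genes were, and their summed FPKM was 27952 to 39499.9 in control, 2395 to 2685 at D4 and 5689.9 to 8823 at D7. Of 8 macrophage genes 8 were called higher at D4 and 7 at D7, where 11.2% and 9.83% of all genes were, with summed FPKM of 212 to 214, 1142 to 1175 and 899 to 985. Summed FPKM of 6 adipocyte genes was 434 to 517, 83.3 to 161 and 8.35 to 225, of 4 fibroblast genes 4997 to 5289, 4033 to 4335 and 3223 to 3650, and of 3 endothelial genes 82.1 to 143, 59.5 to 65.4 and 31.2 to 57.1. For 6 skeletal muscle genes it was 5.50 to 23.7, 4.86 to 39.5 and 6.44 to 9.82, and for 4 neuron genes 11.3 to 14.5, 22.2 to 27.5 and 16.8 to 20.1, with Rbfox3 at a mean of 0.333 counts per library. The neuron sum was mostly Tubb3, a neuronal tubulin, with a mean of 18.1 FPKM and a log2 fold change of 0.76 (SE 0.17) at D4, while Snap25, a synaptic protein, had −1.80 (SE 0.66) at D4 and −3.63 (SE 0.78, called lower) at D7. Of the 8 Schwann cell and myelin genes 7 thus had negative values on both days, the direction of NONRATT003466.2, NONRATT003467.2 and NONRATT003468.2. The exception was Sox10, at 0.07 (SE 0.21) at D4 and 0.63 (SE 0.21) at D7. That direction was not particular to this list. All 6 adipocyte genes, all 3 endothelial genes and 3 of 4 fibroblast genes also had negative values on both days. The 8 macrophage genes had positive values on both days. The part of these cell types in the levels of the 4 transcripts was not tested.

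The features whose pattern was most like the summed level of the 4 were listed by the Pearson correlation of log2 CPM over the 6 libraries, among 8626 other lncRNAs and 9880 genes with a mean of at least 10 CPM. The lncRNAs were MSTRG.11369.1 (chromosome 16, 79732550 to 79734028), NONRATT023716.2 (chromosome 5, 153701691 to 153703569) and NONRATT024922.2 (chromosome 6, 41040300 to 41040944), at r = 0.998, 0.998 and 0.996. The genes were Rnf167, which encodes a ubiquitin ligase, Hacd2, a dehydratase of fatty acid elongation, and Zfyve9, an anchor of Smad proteins, at r = 0.999, 0.998 and 0.998. NONRATT023716.2, the most abundant of the 3 lncRNAs, had 755 and 698 counts in control, 326 and 349 at D4, and 404 and 432 at D7. High values were common, since the 6 points fall into 3 groups and share their libraries with all other features. An r over 0.9 was found for 7.71% of the lncRNAs and 15.6% of the genes.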

How the data were processed

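RNA-seq data of 6 rat sciatic nerve libraries were used, 2 each from the control, D4 and D7 groups. After removal of ribosomal reads, the authors aligned to the rat genome (Rnor_6.0 per the labels) with Hisat2 2.0.4, assembled transcripts with Stringtie 1.3.0 and deposited whole, unnormalized counts per lncRNA transcript and per gene. The FPKM values deposited by the authors divide by length and by 96.0% to 96.2% of all lncRNA and mRNA counts of a library, and were used for levels only. Counts that passed filterByExpr were scaled by TMM and tested in edgeR 4.0.16 (R 4.3.3) with 1 quasi-likelihood model per table over all 6 libraries. The SE was derived from the F statistic. The procedure was tested on simulated data whose planted changes were larger than those fitted for the 4 transcripts. How it behaves at changes of their size was therefore not tested. DESeq2 1.42.0, other scalings and filters, a replicate block and leaving out each library were the alternatives. The 4 transcripts, the gene lists and the tests were chosen with earlier results of these data known. By rule the text names the 4 transcripts, the 3 most abundant other lncRNAs of control, neighbours with a mean of at least 100 counts, flanking genes that were called or nearest, in each list up to 3 called genes and the 2 of highest FPKM, and the 3 most alike features of each table. NONRATT003469.2, NONRATT003470.2 and Capn1 were named after their values were seen, and some genes that the rule names are not reported here. No sequence is printed, since the 4 identifiers were not found in the tables used here. The p-values rest on 2 rats per group.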

Additional observations from a re-analysis of the deposited data

How the results depend on the processing

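With 2 rats per group, the summed level of the 4 transcripts kept its direction in all 3 comparisons under each of the 14 alternatives. At D7 vs control the number of the 4 called was 0 without TMM factors, 1 with the library letter as a replicate block, and 1 to 2 over the fits without 1 library. NONRATT003473.2 changed sign, to 0.11 at D4 without TMM factors and −0.036 at D7 with the scaling of the mRNA table. Over the fits without 1 library it ran from −0.23 to 0.054 at D4 and from −0.081 to 0.20 at D7. The share of the 4 was 1.74%, 0.737% and 1.09% of lncRNA and mRNA counts together in control, D4 and D7, and 16.2% in control and 9.42% at D7 of summed lncRNA FPKM.

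Over the fits without 1 library, 0 to 1 neighbours were called at D4 and at D7, and 2 were called within 200 kb at D4. Of 12 flanking genes tested within 100 kb, 2 were called higher at D4, and 1 higher and 1 lower at D7. Of 52 tested within 500 kb, 7 were called higher and 2 lower at D4 and likewise at D7, and 3 were called at D7 vs D4. Of all genes tested, 11.2% and 10.7% were called higher and lower at D4, 9.83% and 9.02% at D7, and 2.18% at D7 vs D4. The call of Cdc42ep2 at D7 was lost in 9 of 13 alternatives and that of Clk4 at D4 in 8. Paraspeckle genes called ran from 1 to 2 at D4 and from 0 to 1 at D7 vs D4 without 1 library, the 1 at D7 vs D4 being without D7 rat b. Speckle genes called at D4 were 0 with DESeq2, without TMM factors, with DESeq2 size factors, with at least 10 counts in every library and with only the 2 groups compared, and 0 to 1 without 1 library. RNase P and RNase Z genes called at D4 were 3 without TMM factors and 0 to 3 without 1 library, and 1 was called at D7 without TMM factors. The cause of these changes was not tested.

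The letters a and b name different rats, and same-letter libraries deviated together with r of 0.05, 0.07 and 0.01 in the lncRNA table and 0.01, 0.19 and −0.13 in the mRNA table. The letters were therefore not taken as pairs, and the replicate block is reported as an alternative alone. With the letters crossed between D4 and D7 in the mRNA table, an alternative chosen after seeing the data, 0 genes of the flanking and nuclear body lists were called, as with the letters uncrossed.

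Over all lncRNAs, 685 transcripts called lower at D4 and 393 at D7 became 135 to 515 and 90 to 196 without 1 library, 454 and 221 with the replicate block, 434 and 193 without the filter on low counts, and 931 and 731 with DESeq2. For mRNA, 1706 genes higher and 1627 lower at D4 became 2430 and 1077 without TMM factors, and no gene was called at D7 vs D4 without either D4 library in edgeR.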
